A study of Gossypium herbaceum with 12 samples.

Results

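Roots of droughted RAHS-14, the drought-sensitive genotype of Gossypium herbaceum, were compared with roots of watered Vagad, the drought-tolerant genotype of the same cotton species. The comparison holds 6 of the 12 arrays of the series, 3 for each group, and the arrays were chosen by their labels alone. The 3 arrays of watered RAHS-14 served as the reference point, so that the difference seen under drought could be set against the difference that both genotypes already had with water. The labels call the genotypes sensitive and tolerant, and their names come from the text of the study. Plants were a month old and grew in pots in a glasshouse, with 3 pots for each genotype and water regime. Control pots were irrigated daily, while droughted pots were kept below 30% soil moisture. For the length of the drought the labels describe watering in alternate weeks and the text of the study a single week without water, and which applied is not resolved here. Each array measured RNA of a separate biological replicate. Genotype and watering both differ between the groups compared, and only the watered RAHS-14 arrays separate these parts. The arrays of droughted Vagad entered none of the comparisons.

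As background, roots are the first organ to meet drying soil. Drought typically brings in proteins that protect other proteins from unfolding (heat shock proteins and chaperones), enzymes that make compatible solutes such as proline, and changes in starch and sugar metabolism. Transcription factors of the AP2/ERF, WRKY, NAC and MYB families switch stress genes on and off, flavonoid enzymes make phenolic compounds with antioxidant and defence roles, and enzymes such as xyloglucan endotransglycosylases loosen and rebuild the wall of growing cells. Genotypes of a species can also differ in such genes without any stress.

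For each probe set, which is the set of short probes on the array that reads a transcript, 3 log2 differences were formed. The watered gap is watered RAHS-14 minus watered Vagad, the drought change is droughted minus watered RAHS-14, and the remaining gap is droughted RAHS-14 minus watered Vagad, which is the sum of the other two. A positive gap means a higher level in RAHS-14. Intensities under 16 were raised to 16 before log2 was taken. A difference was called where the limma test gave an adjusted p (Benjamini-Hochberg) under 0.05 and the fold was 2 or more. Where the mean of a group lay at or under 16, the fold is a lower bound and is written as "at least". Probe set names are given with the dot after Ghi, GhiAffx, Gra, GraAffx or GarAffx dropped. Gene names are those of a match, often to Arabidopsis, in the supplementary lists of the study, and those lists were selected on these same arrays, as higher in RAHS-14 or as higher in watered Vagad. A member thus carries a name because of the group in which it was high, so the direction of the calls in any group of named genes was partly fixed by the naming and is given as a description. Probe sets ending in _s_at or _x_at can read several related transcripts.

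The median intensity was between 71.14 and 74.18 on the arrays of droughted RAHS-14, between 66.93 and 74.13 for watered RAHS-14 and between 60.81 and 64.61 for watered Vagad. Droughted RAHS-14 was thus the brighter group by a log2 shift of 0.192 between group means of array medians. Each of the 9 arrays had a mean correlation of 0.977 to 0.984 with the other 8 over floored log2 values, and 3074 of the 24029 probe sets tested lay at the floor on all 9. The 3' over 5' signal of control probe sets, which rises as RNA degrades, was 17.4 to 19.6 for actin in droughted RAHS-14, 12.5 to 20.0 in watered RAHS-14 and 14.5 to 20.2 in watered Vagad. Droughted and watered RAHS-14 did not overlap for ubiquitin (3.02 to 3.70 and 3.91 to 4.76) or for the ss1 control (3.70 to 4.26 and 4.95 to 8.20), while watered Vagad spanned 1.75 to 4.25 and 4.17 to 5.86. As markers of green tissue, 7 probe sets for chlorophyll-binding, photosystem and Rubisco-activating proteins summed to 3651 to 3931 in droughted RAHS-14 and 3699 to 4441 in watered Vagad, and 2 of the 7 were called lower in droughted RAHS-14. Of the root markers, the 2 PIP2 aquaporins summed to 3752 to 4592 and 4262 to 4615, while Meloidogyne-induced cotton 1 was at the floor on all 3 droughted RAHS-14 arrays. The part that tissue makeup or RNA quality has in the results below was not tested. In bulk root RNA, fewer cells of a type and less RNA per cell cannot be told apart.

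Droughted RAHS-14 and watered Vagad differed in 1514 probe sets, which is 6.30% of those tested. Of these, 795 were higher in droughted RAHS-14 (3.31%) and 719 were lower (2.99%). In each of the 1514 the 3 arrays of the groups did not overlap, beside 35.3% of all probe sets. When each array was centred on its median, 654 were higher and 1099 lower, so the share of higher calls moved from 52.5% to 37.3%. For comparison, the watered gap was called in 430 probe sets (1.79%), 236 higher (0.982%) and 194 lower (0.807%) in RAHS-14. The drought change was called in 1098 (4.57%), 483 upwards (2.01%) and 615 downwards (2.56%).

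The calls fell into classes by the way the remaining gap was made up. Of the 430 watered gaps, 292 were kept, which means that no drought change was called on top of them, and 204 of these 292 were again called, with the same sign, between droughted RAHS-14 and watered Vagad. A further 69 were closed, since drought moved RAHS-14 against the gap to within 2-fold of watered Vagad, and 13 were narrowed but stayed at 2-fold or more. In 15 the level crossed over to the other side of watered Vagad by at least 2-fold, and 41 gaps widened. Drought opened 625 differences where the watered gap was under 2-fold and not called. The 3 fits share arrays, so these counts are descriptions. The watered RAHS-14 arrays enter the watered gap and the drought change with opposite signs, and an error in them would push a probe set towards the closed or crossed class.

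**Figure D1:**
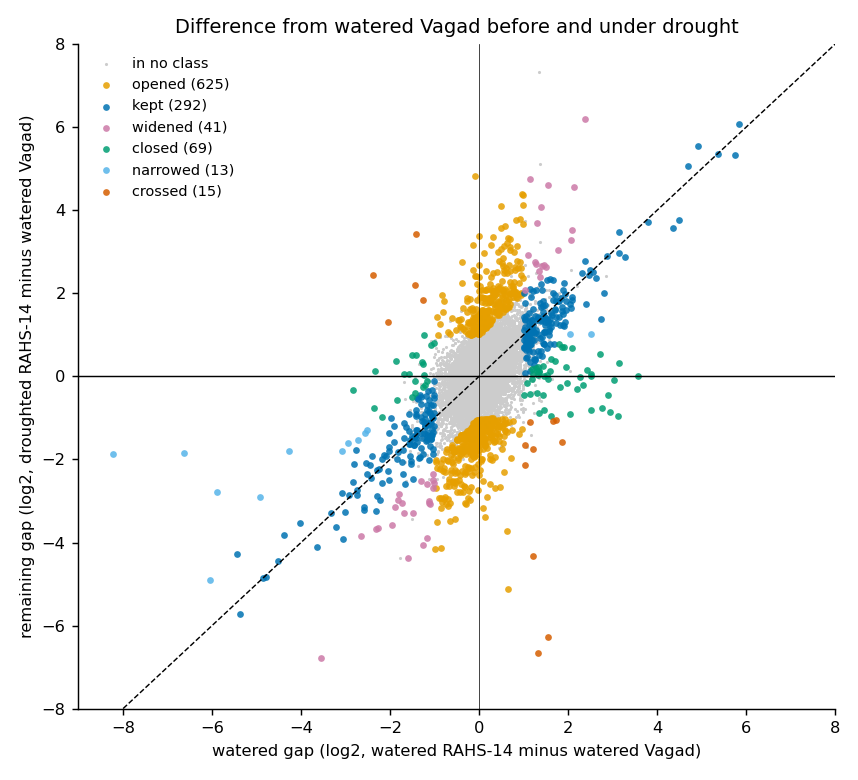
Each point is a probe set, with its watered gap on the x axis and its remaining gap on the y axis, both as log2 differences from watered Vagad, coloured by class. Kept probe sets lie near the dashed diagonal (no drought change), the 69 closed ones between -1 and 1 on the y axis, and the 625 opened ones near a watered gap of 0.

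The remaining 617 of the 1514 calls fell in no class. In 606 of them neither the watered gap nor the drought change was called on its own, and in 584 of the 606 both had the sign of the remaining gap, so that a pair of steps that each missed the call added up to one that passed. In the other 11 the drought change was called on top of a watered gap of 2-fold or more that missed the adjusted p. Calls without a class were more often higher (385) than lower (232) in droughted RAHS-14, whereas opened calls were more often lower (342) than higher (283).

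**Figure D2:**
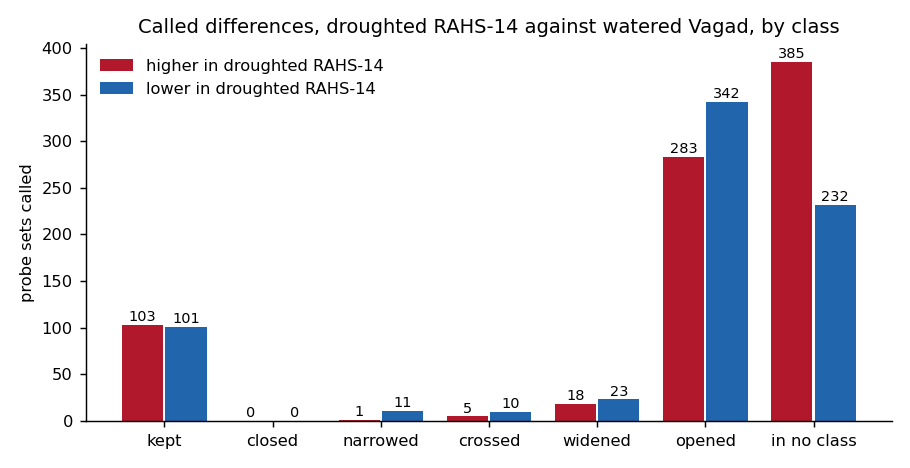
Bars give the number of probe sets called between droughted RAHS-14 and watered Vagad, by class on the x axis and by direction (red higher and blue lower in droughted RAHS-14). Opened differences and calls in no class make up most of the 1514, with 204 kept, 12 narrowed, 15 crossed and 41 widened.

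Of the 1514 calls, 130 higher and 90 lower ones carried a gene name, and the share with a name was uneven, since 44 of the 283 probe sets opened upwards but only 5 of the 342 opened downwards had one. On the higher side the largest named fold was that of a small heat shock protein, and on the lower side those of a receptor kinase-related protein and of a cotton gene known for its response to root-knot nematodes. HSP21 (Ghi2233.1.S1_at), which protects plastid proteins in Arabidopsis, had the largest fold of a named probe set. Its intensity was 8952, 9295 and 9332 on the arrays of droughted RAHS-14, 114.8, 142.6 and 190.6 for RAHS-14 with water and 78.61, 45.83 and 52.16 for watered Vagad. The drought arrays stood far above both watered groups, with a remaining gap of 7.33 (SE 0.22, 160-fold, adjusted p = 3.18e-04). It belongs to the 11 calls whose watered gap (1.35, adjusted p = 0.0923) missed the test. A second HSP21 probe set (GhiAffx11624.1.S1_s_at) was opened by drought with a remaining gap of only 1.48 (SE 0.10, 2.79-fold, adjusted p = 0.00182), so the size of the difference depends on the probe set.

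Kept differences had a like median size with and without drought. Over the 292, the median size was 1.43 for the watered gap, 0.33 for the drought change and 1.42 for the remaining gap. The drought change pointed towards watered Vagad in at most 172 and away from it in at most 120. These counts include probe sets at the floor on all RAHS-14 arrays, such as GraAffx28538.1.S1_s_at and Ghi5199.1.A1_at. Their drought change was 0 and has no direction, and a change below the floor could not be seen. In 289 the drought change was under 2-fold, of which 72 still had an adjusted p under 0.05, and in 3 it reached 2-fold without passing the test. A drought change that was not called is not shown to be absent.

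On the side higher in RAHS-14, a retroelement reverse transcriptase (GhiAffx34006.1.S1_at) gave 1254, 1197 and 1366 in droughted and 1347, 1282 and 1196 in watered RAHS-14, against 32.91, 32.43 and 27.84 in watered Vagad. The watered and droughted RAHS-14 arrays overlapped, and the remaining gap was 5.36 (SE 0.09, 41.0-fold, adjusted p = 9.07e-05). A senescence-associated protein (Ghi743.1.S1_at) was at 2277, 2044 and 2184 under drought and at 19.55, 54.37 and 30.85 in watered Vagad, a remaining gap of 6.08 (SE 0.41, 67.7-fold, adjusted p = 0.00187). PANB2 (Ghi2241.2.A1_at), a ketopantoate hydroxymethyltransferase of pantothenate synthesis, was at 201.4, 205.6 and 229.8 under drought and below the floor on all 3 arrays of watered Vagad (at least 13.2-fold higher, adjusted p = 7.58e-05). In all 3 the groups lay far apart and did not overlap. A second probe set named as senescence-associated (GhiAffx21348.1.S1_x_at) was not called (remaining gap -0.06, SE 0.32). An epoxide hydrolase (Ghi5619.1.A1_at), an enzyme that acts on fatty acid epoxides, measured 222.2, 213.9 and 180.0 under drought and 333.7, 376.5 and 350.8 with water, and was at least 11.8-fold higher than in watered Vagad. A putative thylakoid membrane phosphoprotein (Ghi6486.1.S1_s_at) had a remaining gap of 3.76 (SE 0.40), the unnamed Ghi2844.1.S1_s_at had one of 5.33 (SE 0.22), and the unnamed Ghi904.1.S1_s_at, under the floor on all watered Vagad arrays, was at least 46.6-fold higher.

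On the side lower in RAHS-14, 61 of the 133 kept probe sets had a name, and 7 of these were in the list of defence proteins. The osmotin-like Ghi10646.1.S1_s_at, related to thaumatin-like pathogenesis-related proteins, was at 512.1, 443.8 and 534.0 in droughted and 354.9, 311.2 and 333.5 in watered RAHS-14, against 5966, 7429 and 7647 in watered Vagad. The groups were far apart in both water regimes, with a remaining gap of -3.82 (SE 0.13, adjusted p = 4.26e-04). A glycosyl hydrolase (Ghi10826.1.S1_at) was at 152.9, 116.0 and 96.07 under drought and near 2331 ± 23.1 (SD, n = 3) in watered Vagad, with a remaining gap of -4.29 (SE 0.18, adjusted p = 6.79e-04). Its drought change of 1.16 (SE 0.40, adjusted p = 0.141) missed the test. A second reverse transcriptase (GhiAffx12340.1.S1_at) and a UPF0706 family protein (GraAffx28538.1.S1_s_at) lay at the floor on all droughted RAHS-14 arrays and at means of 453.9 and 468.9 in watered Vagad, at least 28.3-fold and 29.1-fold lower. A cytochrome P450 (Ghi5304.1.A1_at), of a large family of oxidising enzymes, had a remaining gap of -3.91 (SE 0.08). The unnamed Ghi6449.1.A1_at belonged to the same class, at least 52.7-fold lower in droughted RAHS-14 (adjusted p = 1.92e-04).

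The 69 closed differences had a median size of 1.57 with water and 0.31 under drought. Of these, 47 had been higher and 22 lower in watered RAHS-14. The remaining gap was under 0.5 in 47 of the 69. It kept the sign of the watered gap in at most 35 and took the opposite sign in at most 34. These counts include the RRTF1 probe sets Ghi9720.1.S1_at and GhiAffx15854.1.S1_at, whose remaining gap was 0 and has no sign. In 14 the remaining gap, though under 2-fold, had an adjusted p under 0.05, so closed does not mean equal.

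Of the 47 that drought brought down, 20 had a name, among them transcription factors and touch-inducible genes. RRTF1 (GhiAffx15854.1.S1_at), an AP2/ERF factor of redox signalling in Arabidopsis, was at 209.8, 168.9 and 195.0 in watered RAHS-14 and under the floor on all 6 arrays of droughted RAHS-14 and watered Vagad, so no order between these 2 groups can be given. TCH4, a xyloglucan endotransglycosylase induced by touch in Arabidopsis, was the name of 4 probe sets, all closed, although the text of the study assigns Ghi1127.2.A1_x_at and Ghi1127.4.S1_x_at to another gene of this enzyme family. For Ghi10493.1.S1_s_at the intensities were 640.0, 613.5 and 564.4 in watered RAHS-14, 78.39, 85.31 and 94.13 under drought and 77.63, 60.92 and 69.42 in watered Vagad. Drought brought the level from well above to just above that of watered Vagad (watered gap 3.13, SE 0.11; remaining gap 0.31, SE 0.12, adjusted p = 0.169). The remaining gap of Ghi1127.4.S1_x_at and Ghi1127.2.A1_x_at was -0.76 (SE 0.25) and -0.95 (SE 0.27), and that of the latter passed 2-fold and the test with centred arrays (-1.14, adjusted p = 0.0169). TCH2 (GhiAffx5986.1.S1_at), a calmodulin-like protein, was at 884.8, 805.4 and 766.6 with water and 294.4, 318.7 and 206.8 under drought, beside 276.5, 268.0 and 292.8 in watered Vagad. CBF4 (Ghi8116.1.S1_at), a DREB factor, had a watered gap of 2.52 (SE 0.15) and a remaining gap of 0.06 (SE 0.23). Its mean was near the floor in droughted RAHS-14 (18.2) and in watered Vagad (16.41), so a difference between these groups could be hidden. A plasma membrane calcium ATPase (Ghi3763.1.A1_s_at) went from 2.72 (SE 0.33) to 0.53 (SE 0.35), and WRKY40 (Ghi9192.1.S1_s_at) from 1.62 (SE 0.08) to -0.96 (SE 0.22, adjusted p = 0.0473), which reached -1.16 and passed the call with centred arrays. TCH2, CBF4, the calcium ATPase and WRKY40 were picked from the lists after their values were seen.

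The gaps that closed from below were led by flavonoid genes and by a lectin. A curculin-like mannose-binding lectin (GhiAffx3185.1.S1_at) was at 421.9, 420.9 and 503.3 in watered RAHS-14, 2441, 2622 and 2316 under drought and 2338, 2196 and 2226 in watered Vagad. The droughted RAHS-14 and watered Vagad arrays overlapped (remaining gap 0.13, SE 0.06, adjusted p = 0.231). A second curculin-like lectin probe set (GhiAffx8028.1.S1_s_at) was instead kept and called lower (remaining gap -1.42, SE 0.13, adjusted p = 0.00417). Chalcone synthase, the entry enzyme of flavonoid synthesis, was at 684.0, 648.2 and 666.6 in watered RAHS-14, 3063, 3084 and 3249 under drought and 2427, 2325 and 2558 in watered Vagad (Gra207.1.A1_s_at). Drought thus carried it past watered Vagad by 0.36 (SE 0.05, adjusted p = 0.00965), well under 2-fold. Another chalcone synthase probe set, TT4 (Ghi2516.1.S1_s_at), moved from -1.51 (SE 0.09) to 0.50 (SE 0.06). Nucleoredoxin (Ghi787.2.S1_s_at), a thioredoxin-like redox enzyme, rose from a mean of 637.1 to 1934 under drought but stayed under the 3292 ± 226 (SD, n = 3) of watered Vagad, with a remaining gap of -0.77 (SE 0.06, adjusted p = 0.00235).

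**Figure D3:**
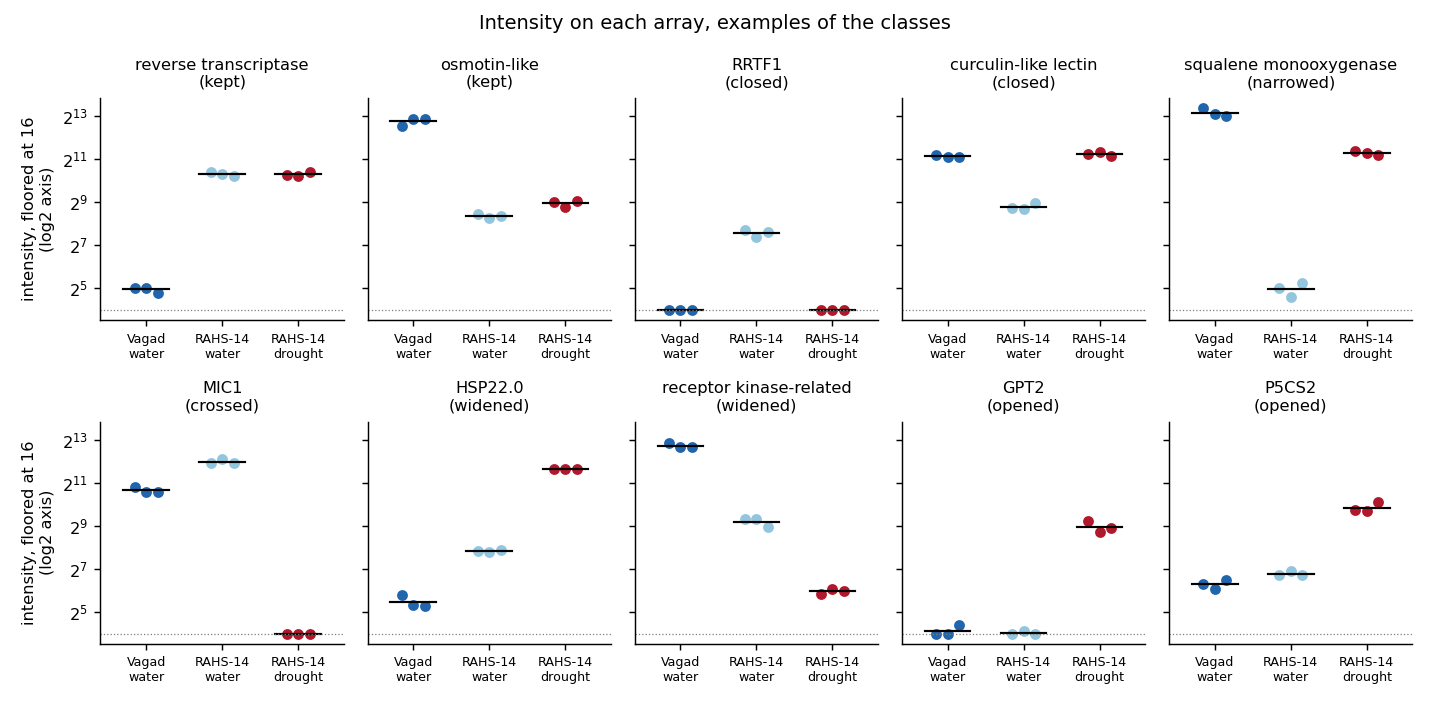
Dots are single arrays (3 per group) and bars the mean of floored log2 values, for 10 probe sets that show the classes; the y axis is intensity on a log2 axis and the dotted line the floor of 16. RRTF1 falls to the floor of watered Vagad, MIC1 passes below it to the floor, HSP22.0 and the receptor kinase-related protein move further from watered Vagad, and GPT2 and P5CS2 separate under drought.

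The 13 narrowed differences started from a larger gap, with a median size of 3.07 that was 1.80 under drought, and 11 of the 13 were lower in RAHS-14. Squalene monooxygenase, which makes the epoxide from which sterols and triterpenes are built, showed the widest watered gap among them. For Ghi482.1.A1_s_at the intensities were 32.76, 24.58 and 37.73 in watered RAHS-14, 2698, 2526 and 2396 under drought and 10746, 8942 and 8254 in watered Vagad. A watered gap of -8.21 (SE 0.20) was met by a drought change of 6.35 (SE 0.18), which left a remaining gap of -1.87 (SE 0.12, 3.65-fold, adjusted p = 0.00159). The second probe set for this enzyme (Gra2985.2.S1_s_at) had a remaining gap of -2.78 (SE 0.43, adjusted p = 0.0169), and this call was lost without droughted RAHS-14 replicate 1 or 3 or watered Vagad replicate 3 (adjusted p = 0.0503, 0.066 and 0.051). An expansin-like protein, EXLB1 (GhiAffx46297.1.S1_s_at), rose from 92.86 ± 19.3 to 373.4 ± 31.6 (SD, n = 3), far short of the 2789 ± 202 of watered Vagad. BIG BROTHER (GraAffx9185.1.S1_s_at), a ubiquitin ligase that limits organ size in Arabidopsis, had the largest remaining gap of the class at -4.89 (SE 0.24, adjusted p = 9.19e-04). In the other direction the auxin-inducible factor AUX2-11 (GhiAffx15164.1.A1_s_at) was narrowed to a remaining gap that missed the test (at least 2.03-fold, adjusted p = 0.0575) and was called without watered Vagad replicate 3 (adjusted p = 0.0115). Its mean in watered Vagad was 11.15, under the floor.

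In the 15 crossed differences the median size of the drought change was 3.36. Meloidogyne-induced cotton 1 (MIC1, Ghi6528.1.S1_at), known in upland cotton from roots infected by root-knot nematodes, had the largest drought change among named probe sets. Another supplementary list of the study gives this probe set a different name, that of a sodium/hydrogen exchanger, so its identity is not settled. Its intensity was 3939, 4404 and 3875 for RAHS-14 with water, 1790, 1560 and 1525 in watered Vagad and 12.84, 0.859 and 13.64 in droughted RAHS-14. A gene that was higher in RAHS-14 than in Vagad with water was at least 101-fold lower under drought (remaining gap -6.66, SE 0.07, adjusted p = 3.62e-05). An unnamed probe set (Ghi6546.1.S1_s_at) had the same course, with 3607 ± 75.4, 15.2 ± 1.09 and 1236 ± 84.3 (SD, n = 3) in watered RAHS-14, droughted RAHS-14 and watered Vagad. ATAF1 (GhiAffx58305.1.S1_s_at), a NAC factor of stress responses, crossed from 1.86 (SE 0.04) to -1.57 (SE 0.12), but a second ATAF1 probe set (Ghi3264.1.S1_s_at) had a watered gap of -0.30 and a remaining gap of -0.58, neither called. LHB1B1 (Ghi10635.1.S1_x_at), a chlorophyll-binding protein of the light-harvesting complex, crossed from 1.22 to -1.76. LHB1B1 is named here as 1 of the 7 green-tissue markers given above, whose summed intensity overlapped between the groups. EXORDIUM, a gene of brassinosteroid-promoted growth in Arabidopsis, crossed on 2 of its 4 probe sets (Ghi1118.1.S1_s_at and GhiAffx18056.1.A1_s_at) to -1.09 (SE 0.11) and -1.06 (SE 0.14). The second of these calls was lost without droughted RAHS-14 replicate 1 (-0.97) or 2 (adjusted p = 0.0507). Of the other two, Gra744.1.S1_s_at was kept and called in the opposite direction (remaining gap 1.61, SE 0.17, adjusted p = 0.00645), and Ghi10089.1.S1_s_at was not called (-0.24).

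Upward crossings were fewer, 5 of the 15. SAG29 (Ghi710.1.S1_s_at), a sugar transporter of senescing tissue in Arabidopsis, was at 5.92, 16.72 and 6.90 in watered RAHS-14, 449.2, 436.5 and 510.9 under drought and 84.52, 71.85 and 101.0 in watered Vagad. It went from near the floor to 5.47-fold above watered Vagad (remaining gap 2.45, SE 0.15, adjusted p = 0.0015). The GDSL lipase GLIP1 (GhiAffx52546.3.S1_at) was 10.7-fold above watered Vagad under drought, and a phosphoethanolamine/phosphocholine phosphatase (GraAffx34131.2.S1_x_at), which frees choline and ethanolamine from their phosphates, was 4.58-fold above it. Flavanone 3-hydroxylase (F3H, Gra2794.2.S1_s_at), a flavonoid enzyme downstream of chalcone synthase, had 123.9, 167.7 and 132.9 in watered RAHS-14, 1441, 1315 and 1585 under drought and 648.0, 515.9 and 590.8 in watered Vagad. Its remaining gap of 1.31 (SE 0.12, adjusted p = 0.00388) made it the flavonoid probe set that was called higher than in watered Vagad, while a second F3H probe set (Ghi7987.1.S1_s_at) was not called (0.22).

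The 41 widened differences had a median size of 1.42 with water and 3.05 under drought, 18 higher and 23 lower in RAHS-14. Small heat shock proteins headed the upward side. HSP22.0 (GhiAffx25696.1.S1_at) was at 226.1, 225.9 and 238.2 in watered RAHS-14, 3233, 3184 and 3266 under drought and 56.08, 40.14 and 38.90 in watered Vagad. Already higher with water, it was 72.7-fold higher under drought (remaining gap 6.18, SE 0.16, adjusted p = 2.26e-04). A class I small heat shock protein (GhiAffx2754.1.A1_at) went from 1.54 (SE 0.13) to 4.61 (SE 0.12), and a tetratricopeptide repeat protein (GhiAffx59652.1.S1_at), with a fold used for binding other proteins, was at least 23.6-fold higher. THI1 (Gra2938.2.A1_at), which makes the thiazole part of thiamine, was at 665.7, 559.1 and 685.2 with water, 3829, 4144 and 4341 under drought and 197.8, 244.2 and 292.1 in watered Vagad. Its remaining gap was 4.08 (SE 0.16, adjusted p = 5.68e-04).

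Among the widened differences lower in RAHS-14, a receptor protein kinase-related gene (Ghi5773.1.S1_at) had the largest fold. Its intensity was 7483, 6660 and 6485 in watered Vagad, 638.8, 642.3 and 498.2 for RAHS-14 with water and 57.00, 67.60 and 64.06 under drought. The gap of -3.54 (SE 0.13) with water became -6.77 (SE 0.09, 109-fold, adjusted p = 6.94e-05). A germin-like protein (GhiAffx22764.1.A1_at), of a family of extracellular defence-related enzymes, was at 138.8, 134.9 and 136.9 with water and 21.39, 12.60 and 22.26 under drought, beside 330.9, 332.6 and 319.4 in watered Vagad. The terpene synthase TPS21 (GarAffx6150.1.S1_at) was at least 12.8-fold lower, the glutathione transferase GSTU7 (GhiAffx25393.1.S1_at) 12.5-fold lower (a second probe set, GhiAffx33673.1.S1_s_at, was kept at -2.35) and WRKY75 (GhiAffx6177.1.S1_at), a factor of phosphate starvation and root development in Arabidopsis, 11.8-fold lower than in watered Vagad. In all of these, drought added to a gap that was present with water.

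Of the 625 differences that drought opened, 283 were higher and 342 lower, with a median remaining gap of 1.60 in size. GPT2 (GhiAffx6053.1.S1_s_at), which carries glucose 6-phosphate into plastids, had 606.6, 430.6 and 479.6 in droughted RAHS-14, at most 17.42 for RAHS-14 with water and 14.75, 10.51 and 21.17 for watered Vagad. It was near the floor in both genotypes with water and at least 28.5-fold higher in droughted RAHS-14 (adjusted p = 5.44e-04). A second GPT2 probe set (GhiAffx13472.1.S1_at) was not called (remaining gap 0.50, adjusted p = 0.116). HSP70 (Ghi10640.1.S1_s_at) and HSP90.1 (GhiAffx17865.1.S1_at), the main ATP-driven chaperones, were 21.0-fold and 17.3-fold higher than in watered Vagad. P5CS2 (GraAffx27366.1.S1_at), the enzyme that commits glutamate to proline synthesis, was at 867.0, 827.9 and 1115 under drought, against 105.0, 119.1 and 106.5 for RAHS-14 with water and 80.16, 67.98 and 89.21 for watered Vagad. Its remaining gap was 3.56 (SE 0.17, 11.8-fold, adjusted p = 8.06e-04). A glucan phosphorylase (GraAffx1885.1.S1_x_at), which releases glucose phosphate from starch, was 13.6-fold higher. Downwards, an ethylene-responsive element binding factor (GhiAffx7865.1.S1_at) was at least 9.04-fold lower, a leucine-rich repeat receptor kinase (Ghi6786.1.S1_at) 7.73-fold lower and a xylosidase of wall polymers (Ghi9633.2.S1_s_at) at least 7.56-fold lower. The xylosidase missed 2-fold with a floor of 64 (-0.92).

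Gene lists were drawn by keywords from the names, over 580 named probe sets, of which 130 were called higher and 90 lower with a median remaining gap of 0.37, beside a median of 0 over all 24029. That makes 37.9% of the named probe sets called in the remaining gap, the share against which a list is to be read. Of the same 580, the watered gap was called higher in 89 and lower in 99, and the drought change upwards in 97 and downwards in 53. By class, 113 were kept, 34 closed, 8 narrowed, 9 crossed, 24 widened and 49 opened. Counts of these kinds in a list are to be read beside those. Among 19 heat shock proteins and chaperones, 11 were called higher and 0 lower, with a median remaining gap of 1.71 and a median watered gap of 0.55. None of its members was named from the list for watered Vagad (0 of 19). The same holds for the starch list (0 of 11) and the thiamine list (0 of 7) below. Their names came from lists of probe sets higher in RAHS-14, so the lack of lower calls was partly fixed by the naming. Of the 19, 6 were opened, 3 widened and 2 kept. HSP23.6 of mitochondria (GhiAffx20947.1.S1_at) was opened with 3.13 (SE 0.15), while the constitutive HSC70-1 (Ghi746.2.A1_at) had a drought change of -0.80 (SE 0.15) and a remaining gap of 0.60 (SE 0.14, adjusted p = 0.0515). Both were picked after their values were seen.

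Among the 11 starch and sugar enzymes, no watered gap was called. In droughted RAHS-14, 7 were called higher and 0 lower than in watered Vagad, and 5 were opened (median 1.97). APL3 (GraAffx29883.2.S1_s_at), a subunit of the ADP-glucose pyrophosphorylase that feeds starch synthesis, was at 2201, 2062 and 2257 under drought, 286.0, 236.7 and 271.7 with water and 194.0, 215.1 and 226.2 in watered Vagad. A starch synthase (Ghi9768.1.S1_s_at) was 3.93-fold and the starch branching enzyme SBE2.2 (GhiAffx27934.1.S1_at, picked after its values were seen) 8.44-fold higher than in watered Vagad (second probe set, GhiAffx734.1.S1_at, 2.34-fold). A second starch synthase probe set (Gra1394.1.A1_s_at) already had a watered gap of 2.06 that missed the test. Its drought change was 0.51, and its remaining gap of 2.57 (SE 0.38, adjusted p = 0.0152) was called. The list member SEX1 (Gra1742.1.A1_s_at), a glucan, water dikinase, was not called (remaining gap 0.53, adjusted p = 0.188). The glucan phosphorylase given above was called higher as well, but it is not a member of this list.

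All 7 probe sets of thiamine and pantothenate synthesis were called higher both with water and under drought, with the median gap at 1.52 and then 2.93. As said above, the naming partly fixed this direction. THIC, which makes the pyrimidine part of thiamine, widened on 3 probe sets, to 2.65 (SE 0.17) on Ghi6836.1.S1_s_at, 2.93 (SE 0.13) on Gra2662.1.S1_s_at and 3.28 (SE 0.12) on GraAffx9604.1.S1_s_at, all picked after their values were seen. THI1 was uneven, since it widened on Gra2938.2.A1_at but was kept on Ghi10424.1.S1_s_at and Gra70.1.S1_s_at at 1.36 (SE 0.04) and 1.38 (SE 0.04). The paired THI1 probe sets gave close intensities on each of the 9 arrays used, and they may read the same transcript.

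The 13 flavonoid probe sets showed a turn of sign, from a median watered gap of -1.23 with 9 called lower to a median remaining gap of 0.48 with 1 called higher. Of these 13, 5 were named because the study listed them as higher in watered Vagad. The others came from lists of probe sets higher in RAHS-14, so the turn was partly fixed by the naming. Drought raised 11 of the 13 in RAHS-14, and 7 were closed. Leucoanthocyanidin dioxygenase (Ghi1234.1.S1_s_at) lay at the edge of the class, with a remaining gap of 0.99 (SE 0.07) that passed 2-fold without droughted RAHS-14 replicate 1 (1.02) or watered Vagad replicate 1 (1.05) and with quantile normalization (1.01). Leucocyanidin reductase (Ghi2177.1.S1_s_at) had 0.75 (SE 0.05), and ANTHOCYANIN11 (Ghi3041.1.S1_s_at), a regulator of the pathway, 0.97 (SE 0.06), or 1.01 and called without watered Vagad replicate 2.

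Of the 9 AP2/ERF and DREB factors, 5 had a called watered gap, all higher in RAHS-14, and all 5 were closed. The list had a median gap of 1.61 with water and 0 under drought. This 0 is the value of the RRTF1 probe sets, for which no order can be given, and CBF4 lay near the floor in both groups. The 2 list members called under drought were lower, an ethylene-responsive factor (GhiAffx60317.1.S1_at) at -3.43 (SE 0.27) and the element binding factor given above. Calcium and touch genes followed the same course, with 7 of 20 called higher with water, 7 lowered by drought and 7 closed. Of these 20, 0 were named from the list for watered Vagad, as were only 2 of the 9 AP2/ERF and DREB factors. The direction of the calls with water in these lists was thus partly fixed by the naming. Under drought 0 of the 20 calcium and touch genes were called, although 2 were called lower when arrays were centred. Of the 7 closed ones, 4 carried the TCH4 name. The 3 members with the smallest p, chaperonin 20 (Gra607.1.S1_s_at), IQD13 (Ghi5340.1.A1_s_at) and a polcalcin (Ghi6891.1.S1_at), had remaining gaps of 0.97, 0.20 and 0.93, none called. The 14 WRKY, NAC and MYB factors split, with 4 called higher and 4 lower. ANAC047 (GhiAffx42192.1.S1_at) kept a gap of 2.00 (SE 0.26) and WRKY51 (Ghi3139.1.A1_at) reached -2.48 (SE 0.33) with neither part called, both picked after their values were seen. The ANAC047 call was lost with a floor of 64 (0.46). MYB66 (GarAffx37322.1.S1_s_at), a factor of root hair patterning in Arabidopsis, was opened with 1.42 (SE 0.09), and GHMYB36 (GhiAffx15635.1.S1_at) kept a gap of -1.62 (SE 0.11).

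The lists of defence proteins, of ethylene, jasmonate and oxylipin genes and of terpenoid enzymes had no member called higher in RAHS-14, with or without drought. Of their members, 8 of 14, 7 of 7 and 5 of 6 had been named because the study listed them as higher in watered Vagad, which fixed the direction of their watered gap. Of 14 defence proteins, 10 were called lower with water and 9 under drought, with 0 called higher in either, and 7 were kept. The remaining gap of 4 of the 14 was above 0, none of them called. Wound-induced protein WIN2 (GhiAffx25472.1.A1_s_at) was at 514.4, 453.7 and 510.0 under drought and 3868, 3595 and 3479 in watered Vagad. An acidic endochitinase (Ghi6435.1.A1_at) and a basic chitinase (Ghi6521.1.S1_at), enzymes that cut fungal cell walls, kept gaps of -1.59 (SE 0.04) and -2.80 (SE 0.08). PR1 (Ghi8071.1.S1_at), a marker of pathogen defence in many plants, was at least 9.40-fold lower, and a trypsin inhibitor (Ghi6529.1.S1_at) widened to 7.99-fold lower. The basic chitinase and PR1 were picked after their values were seen.

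All 7 ethylene, jasmonate and oxylipin genes had a watered gap called lower in RAHS-14, and 5 were called lower under drought, with a median of -1.57 and then -1.62. JAZ3 (GhiAffx42068.1.S1_at), a repressor of jasmonate signalling, was at 511.1, 491.6 and 434.9 under drought, 529.4, 582.4 and 465.1 with water and 1891, 1882 and 1903 in watered Vagad. JAZ1 (Ghi10327.1.S1_s_at) and LOX1 (Ghi234.1.S1_s_at, picked after its values were seen) were likewise kept, at -1.46 (SE 0.09) and -1.62 (SE 0.10). Fatty acid 9-hydroperoxide lyase (GhiAffx47143.1.S1_at) widened to -3.04 (SE 0.05), and an ACC oxidase, the last enzyme of ethylene synthesis (Ghi8025.1.S1_s_at, picked after its values were seen), to -3.15 (SE 0.21), while a second ACC oxidase probe set (Ghi6898.1.S1_at) was not called under drought (-0.70). Of the 6 terpenoid and sterol enzymes 5 were called lower in both comparisons, among them a cineole synthase (GhiAffx7956.1.S1_at) at -2.08 (SE 0.10) and a second TPS21 probe set (GhiAffx49963.1.S1_s_at), at least 4.69-fold lower, whose call was lost with a floor of 64 (-0.28).

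**Figure D4:**
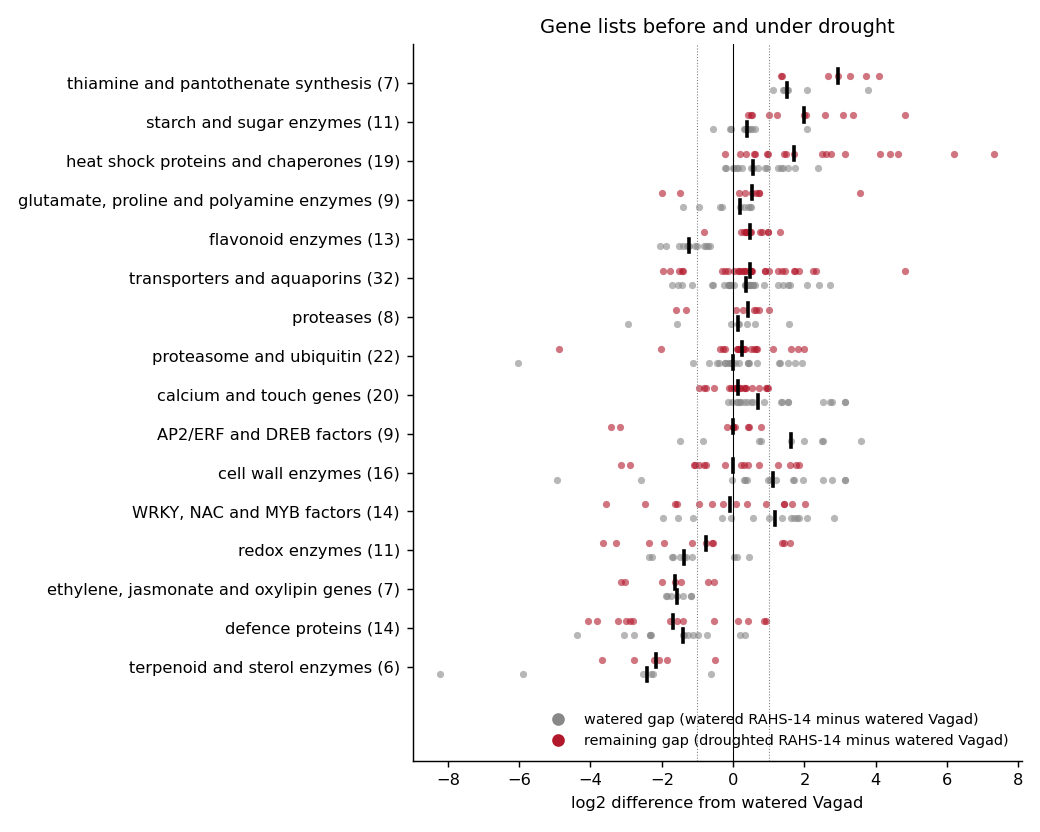
Each dot is a named probe set of a list (number of members in brackets), grey for the watered gap and red for the remaining gap, on a log2 scale as the difference from watered Vagad; short black bars are medians and dotted lines mark 2-fold. Thiamine and pantothenate synthesis, starch and sugar enzymes and heat shock proteins have the highest medians under drought (2.93, 1.97 and 1.71), and the flavonoid median turns from -1.23 to 0.48.

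The other lists held mixed calls. Of the redox enzymes, 8 of 11 had been named because the study listed them as higher in watered Vagad. Of 11 redox enzymes, 3 were called higher and 5 lower, the latter with peroxidase 10 (GhiAffx21573.1.S1_at) at -3.28 (SE 0.15), ERD9 (Ghi779.1.S1_at), a glutathione transferase, at -1.93 (SE 0.08) and the peroxiredoxin PER1 (Ghi5199.1.A1_at), under the floor on all droughted RAHS-14 arrays, at least 2.21-fold lower, a call lost with a floor of 64. The 16 cell wall enzymes had 4 calls in each direction, among them the kept xyloglucan endotransglycosylase XTR4 (GraAffx8742.1.S1_at) at -3.14 (SE 0.17) and beta-galactosidase 8 (Ghi1272.1.A1_s_at) at 1.24 (SE 0.05). Of 32 transporters and aquaporins, 10 were called higher and 5 lower. The nitrate transporter NTP2 (GhiAffx58791.1.A1_at) kept a gap of 2.34 (SE 0.05), an amino acid transporter (GraAffx12807.1.A1_s_at) one of -1.53 (SE 0.06), and COPT1 (Ghi6075.1.S1_s_at) and ZIP3 (GhiAffx14.1.S1_at), for copper and zinc and picked after their values were seen, ones of 1.85 (SE 0.12) and 2.23 (SE 0.09). The aquaporin PIP2;8 (GraAffx9255.1.S1_x_at, picked in the same way) was called at 1.75 (SE 0.31, adjusted p = 0.0232), a call lost without any single droughted RAHS-14 array or without watered Vagad replicate 3 (adjusted p = 0.0645 to 0.0877).

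Of 22 proteasome and ubiquitin genes 3 were called higher and 2 lower (22.7%), of 8 proteases 0 and 2 (25.0%) and of 9 glutamate, proline and polyamine enzymes 1 and 2 (33.3%), beside 37.9% of all named probe sets. Alfin-like 2 (Ghi7720.1.S1_at), which carries a PHD finger, was kept at 1.82 (SE 0.09) and a RING-type zinc finger protein (Ghi2766.2.S1_s_at) at -2.01 (SE 0.08). The drought-responsive cysteine protease RD19 (Ghi8386.1.S1_x_at) was at 3086, 2897 and 2632 in droughted RAHS-14 and 7080, 7497 and 6840 in watered Vagad, with a second RD19 probe set (Ghi4724.1.A1_x_at) narrowed to -1.61, and LON2 (Ghi7859.2.S1_at) and an OTU-like protease (Gra2919.1.S1_s_at) were not called. Proline oxidase (Ghi9171.3.A1_s_at, picked after its values were seen), which breaks proline down, kept a gap of -1.48 (SE 0.16), while P5CS2, which makes it, was opened upwards. Asparagine synthase ASN1 (Gra1614.2.S1_x_at) rose 1.03 (SE 0.08) with drought and had a remaining gap of 0.73 (SE 0.06) that was not called, and APETALA2 (GraAffx6067.1.S1_s_at) had one of 0.77 (SE 0.08), also not called.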

How the data were processed

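RNA of roots was measured on 12 Affymetrix cotton arrays, and the 9 arrays of watered RAHS-14, droughted RAHS-14 and watered Vagad were used. The deposited values were linear intensities that the authors computed with MAS5 (version not given in the sources used here), which scales each array by 1 factor. Of 24132 probe sets 103 controls were left out. Intensities were floored at 16 and log2 values compared by limma 3.58.1 in R 4.3.3 (functions lmFit and eBayes), fitting each pair of groups on its own 6 arrays. No dim probe sets were removed. Columns of no mapped sample numbered 0. Tables and plots used Python 3.11.15, pandas 2.3.3, numpy 2.4.6 and matplotlib 3.10.9. Fits were first tested on simulated data, where 200 probe sets had known changes. The number of arrays limits the precision.

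The probe gene table listed 756 probe sets (710 with 1 symbol, 46 with several, 0 with none), all symbols being LOC numbers, so names came from the supplementary lists. Only probe sets directly paired with a name, or named in the list for watered Vagad without repeating the preceding name, were used, because 117 of 122 unpaired probe sets carried the name of the preceding one. Named were the 12 largest folds per direction, the 4 largest per class and direction, the 3 smallest p per list, 2 unnamed per direction, and others as stated. Values of further probe sets with the same name were added for some genes only, after their values were seen. Further probe sets of the cytochrome P450, leucine-rich repeat kinase and tetratricopeptide repeat names were not called (remaining gaps -0.91, 0.24 and 0.31). Groups, classes and the 17 lists were chosen with earlier results of these data known. Alternatives were 1 fit on 9 arrays, the replicate number as a block, the t-test of the methods (adjusted and unadjusted), quantile normalization, median centring, the 12014 probe sets above the median mean, a floor of 64, a robust prior with intensity trend, and each array left out in turn.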

Additional observations from a re-analysis of the deposited data

How the results depend on the processing

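Adding the title replicate number as a block lowered every count: 433 higher and 479 lower calls, 47 kept, 13 closed or narrowed, 4 crossed, 7 widened and 323 opened. The numbers do not pair the samples, since deviations of same-numbered arrays of droughted RAHS-14 and watered Vagad correlated at -0.06, -0.02 and 0.00. By unadjusted p, the t-test of the methods gave 469 kept differences. Centring each array on its median gave 1099 lower calls and 23 crossed, and a floor of 64 gave 516 higher calls, 54 closed or narrowed and 26 widened. Leaving out each array in turn gave 578 to 795 higher and 600 to 719 lower calls. The upper ends are the unchanged counts, since watered RAHS-14 arrays do not enter that fit. By class, the omissions gave 167 to 310 kept, 44 to 71 closed or narrowed, 11 to 18 crossed, 19 to 40 widened and 484 to 604 opened. The cause of these shifts was not tested, beyond the smaller number of arrays in each fit. Without watered RAHS-14 replicate 1, 2 or 3 the kept count was 174, 167 and 167, closed or narrowed 44, 44 and 47, and widened 19, 21 and 21. Without watered Vagad replicate 2 or 3 the kept count was 178 and 182 and widened 24 and 26, and without replicate 3 closed or narrowed was 53. The other alternatives left these counts within 1.5 times. Of 1946 values of the 109 named probe sets under the alternatives, 0 changed sign with a call, 20 lost their call, 13 gained one and 1913 kept their side of the call. The 1913 include all 109 values for each watered RAHS-14 array left out. Those arrays do not enter the remaining gap, so these values could not change. Signal over background limits the dim genes, since 25.6% to 29.8% of probe sets lay at or under the floor on each array.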

Other observations

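The arrays of droughted Vagad were left out of every comparison above. On replicates 1 and 2 the median intensity was 322 and 345.3, against 70.94 on replicate 3, whose 3' to 5' actin ratio of 41.3 was the highest of the series. As single values of replicate 3, with no test, HSP21 (Ghi2233.1.S1_at) was at 1251, HSP22.0 (GhiAffx25696.1.S1_at) at 720.6 and P5CS2 (GraAffx27366.1.S1_at) at 552.2, each between the levels of watered Vagad and droughted RAHS-14. MIC1 (Ghi6528.1.S1_at) was at 347.0 and the receptor kinase-related gene (Ghi5773.1.S1_at) at 34.14 on this array, where watered Vagad had 1625 ± 144 and 6876 ± 533 (SD, n = 3). Squalene monooxygenase (Ghi482.1.A1_s_at) was at 9167, within the range of watered Vagad.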
